A study of Schizosaccharomyces pombe with 3 samples.

Results

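The features described here are stretches of DNA between fission yeast genes that gave a chromatin immunoprecipitation ratio on exactly 2 of 3 arrays. They were chosen by name and by the software's spot flags, which follow the measured signal: the name marks an intergenic stretch, and exactly 2 arrays held at least 1 spot accepted in both channels. Those called high or low were in turn selected on their log2 ratios. This gave 914 of the 5169 intergenic features on the array (17.7%). A further 2239 had a ratio on all 3 arrays, 864 on 1 array and 1152 on none. The study hybridised chromatin of Schizosaccharomyces pombe cells carrying Tup12 fused to the green fluorescent protein (GFP), in mid-log growth in the rich medium YES. On each of the 3 arrays the Cy5 channel held DNA precipitated with an anti-GFP antibody and the Cy3 channel held the input DNA. The labels describe separate experiments but name no cultures, so p-values measure the spread between these arrays, which may be technical. An untagged strain is not among the arrays analysed here, the dyes were not swapped, and the labels do not say which promoter drives the fusion.

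Tup12 is one of a pair of fission yeast proteins related to budding yeast Tup1. Proteins of this family do not bind DNA themselves: with the partner protein Ssn6 they form a corepressor that sequence-specific DNA-binding proteins bring to promoters. An intergenic feature on such an array stands for the stretch upstream of, and named after, a gene, so a high ratio there places the tagged protein near that gene's promoter or near that of a divergent neighbour. Values below are log2 ratios of immunoprecipitate to input with the median of all intergenic and coding spots of the array set to 0. A value of 1 is therefore a ratio of 2 times that of the array's middle spot. Each feature was spotted 2 times per array, and its accepted spots were averaged.

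The promoters below belong to features among the highest and the lowest on both arrays, and are shown to let the reader see the DNA the named results concern. They are the 250 bases before the annotated transcript start (fewer where another coding transcript was met), cut from the RefSeq assembly ASM294v3 and written 5′ to 3′ in the direction of the gene. Capitals mark GATAA on either strand, the core letters of the element read by GATA-type repressors. The sources used here do not give the stretches amplified for the array, so these windows stand for the promoters and not for the spotted DNA. The first 5 belong to features high on both arrays, and the last 3 to features low on both. Left out were SPAC1F12.10, the third by its lower value, which matched no gene, and SPAC9.06c, the lowest by its higher value, whose window was under 100 bases once the part in another coding transcript was removed.
SPCC24B10.03 chrIII:906036-906285 plus strand: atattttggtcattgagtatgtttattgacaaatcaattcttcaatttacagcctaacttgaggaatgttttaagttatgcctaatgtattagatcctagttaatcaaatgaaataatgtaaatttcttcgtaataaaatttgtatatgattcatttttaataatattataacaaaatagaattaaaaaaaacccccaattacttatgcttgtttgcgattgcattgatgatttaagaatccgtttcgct
dop1 chrI:492182-492381 plus strand: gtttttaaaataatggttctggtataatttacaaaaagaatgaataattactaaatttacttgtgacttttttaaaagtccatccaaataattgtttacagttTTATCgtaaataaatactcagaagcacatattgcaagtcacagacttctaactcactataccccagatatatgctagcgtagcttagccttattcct
rec12 chrI:1772675-1772924 plus strand: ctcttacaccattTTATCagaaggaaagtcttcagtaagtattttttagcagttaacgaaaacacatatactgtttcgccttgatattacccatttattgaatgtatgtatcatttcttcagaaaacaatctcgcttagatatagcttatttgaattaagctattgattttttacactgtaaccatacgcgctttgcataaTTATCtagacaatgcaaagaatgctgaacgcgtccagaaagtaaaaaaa
SPBC887.16 chrII:3574671-3574920 plus strand: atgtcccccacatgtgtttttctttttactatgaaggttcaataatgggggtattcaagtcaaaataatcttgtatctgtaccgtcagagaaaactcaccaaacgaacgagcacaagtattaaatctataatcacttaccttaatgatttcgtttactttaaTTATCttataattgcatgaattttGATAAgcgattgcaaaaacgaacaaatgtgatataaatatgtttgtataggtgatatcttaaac
cys2 chrII:412679-412928 minus strand: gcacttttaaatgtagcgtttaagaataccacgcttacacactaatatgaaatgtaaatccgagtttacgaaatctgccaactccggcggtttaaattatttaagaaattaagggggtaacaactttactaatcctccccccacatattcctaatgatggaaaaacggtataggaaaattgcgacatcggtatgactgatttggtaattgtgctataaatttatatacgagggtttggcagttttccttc
moc3 chrI:993789-994038 minus strand: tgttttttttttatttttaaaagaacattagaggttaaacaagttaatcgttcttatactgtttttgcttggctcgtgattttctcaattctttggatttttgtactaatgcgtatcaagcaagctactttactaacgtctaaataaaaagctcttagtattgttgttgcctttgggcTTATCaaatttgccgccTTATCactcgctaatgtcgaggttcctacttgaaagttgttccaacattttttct
ppk14 chrI:770290-770539 plus strand: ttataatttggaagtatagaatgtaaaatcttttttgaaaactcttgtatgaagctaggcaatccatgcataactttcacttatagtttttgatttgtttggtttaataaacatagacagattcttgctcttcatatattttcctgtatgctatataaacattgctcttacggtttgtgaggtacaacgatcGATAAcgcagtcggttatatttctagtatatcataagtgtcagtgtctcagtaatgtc
mad2 chrII:3294107-3294274 plus strand: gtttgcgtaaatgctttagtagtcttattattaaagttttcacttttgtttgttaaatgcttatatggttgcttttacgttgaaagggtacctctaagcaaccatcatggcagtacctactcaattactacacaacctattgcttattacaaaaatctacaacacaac

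GATAA was present in the windows of dop1, rec12 and SPBC887.16 among the high features, and in those of moc3 and ppk14 among the low ones. It was found in 52.1% of the 860 windows of features with a ratio on 2 arrays, in 50.0% of the 194 windows of those high on both, and in 54.1% of all 5144 windows. The other motifs searched on both strands did not overlap GATAA and were rarer. TGACGT, the core of the cyclic AMP response element, was in 3.37% of the windows of the 2-array features, in 5.67% of the high ones and in 5.54% of all windows. CCCCTC, read by stress-responsive zinc finger proteins, was in 0.814%, 1.55% and 1.69% of the same windows. CAGTCACA, the HomolD box of ribosomal protein genes, was in 2.21%, 2.58% and 2.60%. These shares describe letters only.

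Most of the 914 features lay above the middle of their arrays. Both values were above 0 in 704 features (77.0%), both were below 0 in 65 (7.11%), and the signs differed in 145. The mean of the 2 arrays had a median of 0.72 and ran from -1.12 to 4.57. The 2 arrays of a feature differed by a median of 0.44, against 0.44 over all pairs of arrays for the 3-array features. A difference above 1 was seen in 120 features and one above 2 in 16.

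The missing ratio was nearly always a matter of the input channel. On the array without a ratio the input spots were rejected in 858 features (93.9%), both channels in 45 and the immunoprecipitate in 6, while in 5 the channels accepted different spots. The input signal of the 2-array features, as median pixel intensity, was 323, 548 and 433.5 on replicates 1, 2 and 3. It was 665, 1096 and 939.5 for the 3-array features, so the 2-array features were dimmer on every array. Their immunoprecipitate signal was 859.5, 800.25 and 864.5, against 777, 820 and 1018.5 for accepted negative control spots, which are empty, buffer, luciferase and E. coli spots. The middle 2-array feature was thus no brighter in the immunoprecipitate than a control spot on replicates 2 and 3, and somewhat brighter on replicate 1. The immunoprecipitate channel accepted 42.1%, 49.7% and 45.2% of the control spots, and the input channel 1.83%, 1.77% and 1.53%. A high ratio in these features can therefore come with an immunoprecipitate signal at the level of the controls over a faint input; how far this sets the ratios was not tested.

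**Figure D1:**
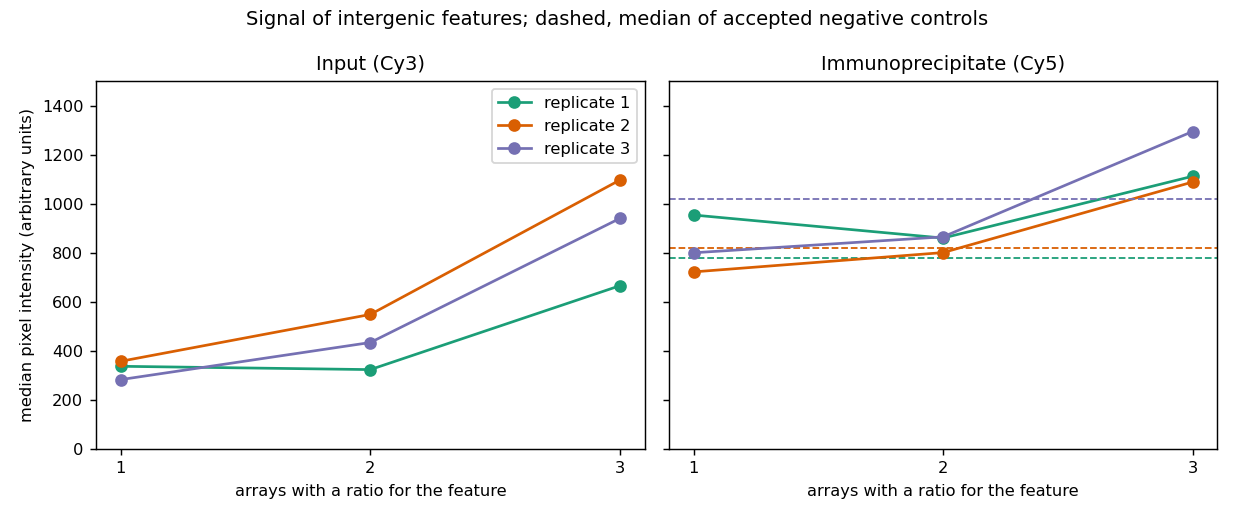
Median signal of intergenic features in the input (left) and the immunoprecipitate (right), as median pixel intensity in arbitrary units, by the number of arrays on which a feature had a ratio, with 1 line per replicate; dashed lines are the median of accepted negative control spots. The 2-array features had an input signal of 323 to 548 and an immunoprecipitate signal of 800.25 to 864.5, below the 3-array features in both channels.

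Compared with the 3-array features on the same array, the 2-array features had a higher median ratio. Their medians were 0.69, 0.86 and 0.68 on replicates 1, 2 and 3, against 0.53, 0.58 and 0.47 for the 3-array features. The difference was 0.22 ± 0.06 (SD, n = 3) and had the same sign on all 3 arrays (exact sign-flip test, two-sided, p = 0.25, and 3 arrays can give no smaller one). When features were first sorted into 10 bins of like input brightness, the difference was -0.20 ± 0.11 (SD, n = 3, exact sign-flip p = 0.25), and after loess normalisation it was -0.11. The sign of the comparison thus turned once features of like input brightness were set against each other.

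At or above 1 on both arrays stood 210 of the 914 features (23.0%), and 27 of these were at or above 2 on both. These values chose the features, so they are a description with no test. The share differed between pairs of arrays. On replicates 2 and 3 it was 107 of 335 features (31.9%), where 23.1% of the 3-array features passed the same limit on the same arrays. On replicates 1 and 2 it was 68 of 305 (22.3%), against 23.7% of the 3-array features. On replicates 1 and 3 it was 35 of 274 (12.8%), against 24.3%. So the features that replicate 1 rejected were high more often than the 3-array features, and those that replicate 2 rejected were high less often. Just inside the limit lay smd1, a core protein of the spliceosomal snRNPs, at 1.00 and 1.13. Just outside lay erv29, a cargo receptor, with a lower value of 0.998.

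The low side was nearly empty. No feature reached -1 on both arrays, against 2.23%, 2.37% and 1.47% of the 3-array features on replicates 2 and 3, 1 and 3, and 1 and 2. A limit of -0.5, used for the low side once the first count was known, gave 10 features (1.09%). They were 4 of 335 (1.19%) on replicates 2 and 3, where 7.24% of the 3-array features passed. They were 3 of 274 (1.09%) on replicates 1 and 3, against 9.02%, and 3 of 305 (0.984%) on replicates 1 and 2, against 6.83%. Just inside the limit of -0.5 was dfp1, with a higher value of -0.51, and just outside was ppm1, a leucine carboxyl methyltransferase, with -0.47. SPAC9.06c missed the limit of -1 with a higher value of -0.98.

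**Figure D2:**
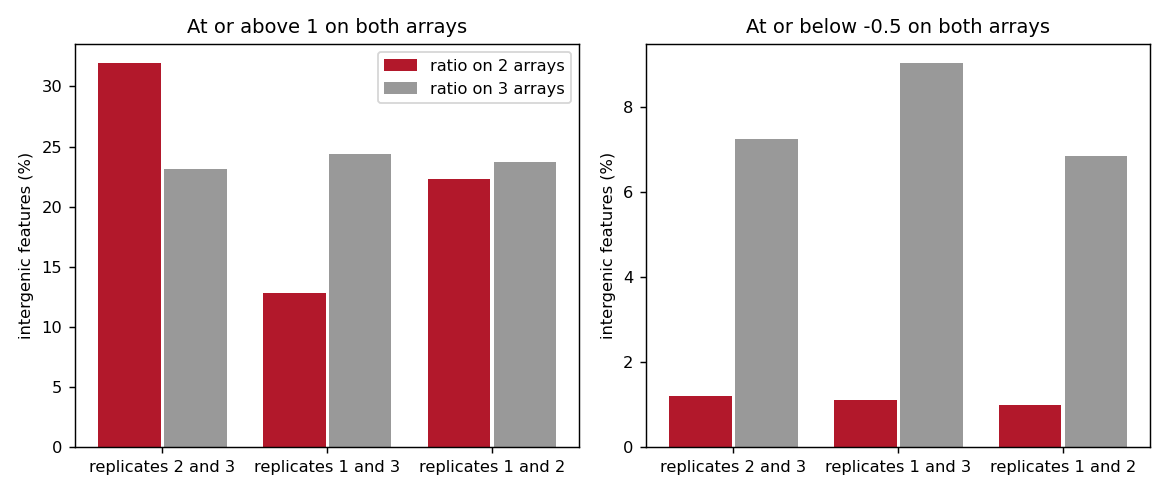
Share of intergenic features (%) at or above 1 on both arrays of a pair (left) and at or below -0.5 on both (right), for features with a ratio on only those 2 arrays (red) and for the 2239 features with a ratio on 3 arrays (grey). The high share of the 2-array features ran from 12.8% to 31.9% across pairs, and their low share stayed between 0.984% and 1.19%, below the 3-array features on every pair.

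The pairs of arrays also differed in how closely the values followed each other, given here as a description over features that share arrays. Over the 2-array features Pearson's r was 0.48 on replicates 2 and 3 (335 features), 0.73 on replicates 1 and 3 (274) and 0.59 on replicates 1 and 2 (305). Over the 2239 3-array features it was 0.75, 0.86 and 0.83. Spearman's rho was 0.44, 0.63 and 0.66 for the 2-array features and 0.70, 0.84 and 0.79 for the others. Both correlations were thus lower among the 2-array features on every pair. The median difference between the arrays was not larger throughout. In the same order it was 0.52, 0.32 and 0.44 for the 2-array features and 0.59, 0.35 and 0.43 for the others.

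**Figure D3:**
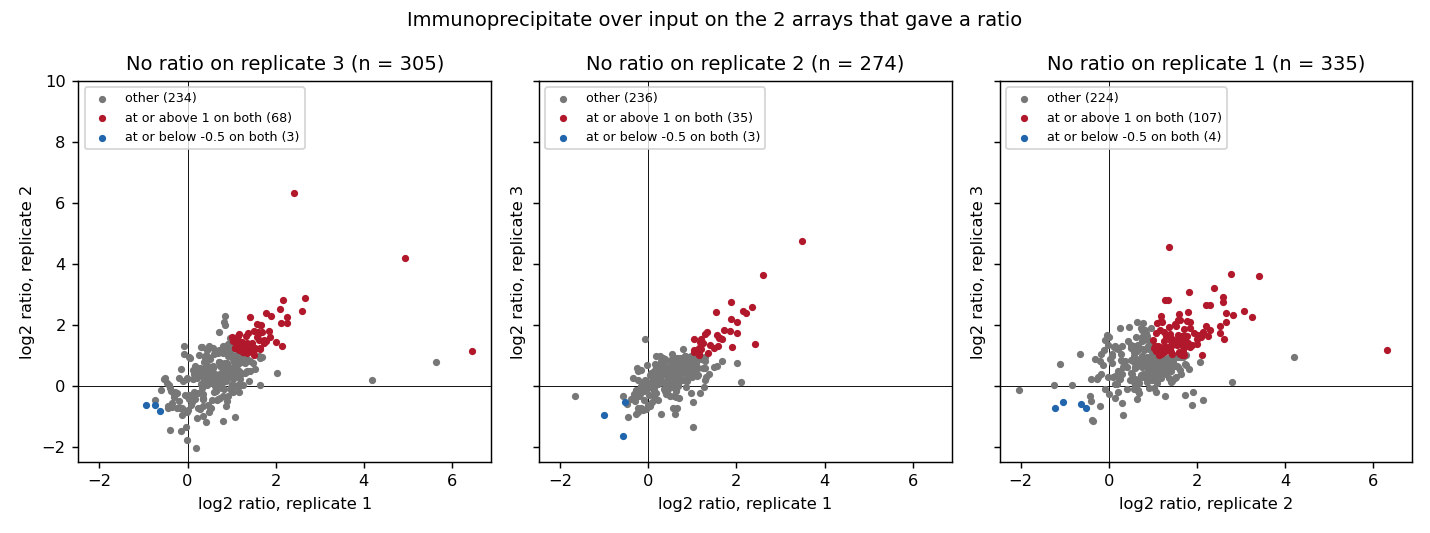
Log2 ratio on the 2 arrays that gave one, 1 point per feature, in 3 panels by the replicate that gave none; red points are at or above 1 on both arrays, blue points at or below -0.5 on both, and grey points are the others. The numbers of red points are 68, 35 and 107, the blue points number 3, 3 and 4, and a few points lie far from the others on 1 array only.

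Among the 15 features with the highest lower value, the extreme was the feature of SPCC24B10.03, a gene for an uncharacterised protein on chromosome III. It read 4.93 on replicate 1 and 4.20 on replicate 2, each from a single spot. The input of those spots was 11 and 106, far under the array's usual input, and the immunoprecipitate was 3.16 and 2.70 times the median control spot. The feature of dop1, which codes for a Dopey family protein of membrane traffic, read 3.49 on replicate 1 and 4.74 on replicate 3, also from single spots, with an input of 203 and 20. In both features the spots with a ratio were thus bright in the immunoprecipitate, but this and the size of the ratios rest on 1 spot per array and on faint inputs. With every spot accepted in the immunoprecipitate averaged, SPCC24B10.03 stood at 1922.5 on replicate 1 and 1517 on replicate 2. The 95th percentile of the controls was 1411.8 and 1554.4 on these arrays.

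Several features of the same group had 2 accepted spots on both arrays. SPAC1F12.10, a name that matched no annotated gene, read 3.40 on replicate 2 and 3.60 on replicate 3, with an immunoprecipitate at 3.19 and 3.29 times the median control. The feature of rec12, whose product makes the DNA breaks that start meiotic recombination, read 2.77 on replicate 2 and 3.68 on replicate 3. The feature of SPBC887.16, an uncharacterised gene divergent to sur2 across 2659 bases on chromosome II, read 2.68 on replicate 1 and 2.87 on replicate 2. In all of these the 2 arrays were within 1 log2 unit of each other.

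The feature of pmc4, the gene of the Mediator subunit Med4, read 3.07 on replicate 2 and 2.45 on replicate 3, and its immunoprecipitate was 5.25 and 3.20 times the median control. The feature named abp1 read 2.61 on replicate 1 and 2.44 on replicate 2. RefSeq gives that name to more than 1 gene, so the feature was matched to none. The feature of rsa4, a ribosome assembly gene, read 2.36 on replicate 1 and 2.59 on replicate 3. The feature of rpl1603, for a protein of the large ribosomal subunit, read 2.67 on replicate 2 and 2.39 on replicate 3. These 4 features had 2 accepted spots on both arrays, and each was at least 2.36 on both.

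With 1 accepted spot on 1 of the arrays came cys2, gor2, efr3, pom34 and isp3. The feature of cys2, whose enzyme acetylates homoserine on the way to sulfur amino acids, read 2.62 on replicate 1 and 3.63 on replicate 3. The feature of gor2, a glyoxylate reductase gene, read 2.59 on replicate 2 and 2.74 on replicate 3. The feature of efr3, known in budding yeast for anchoring a lipid kinase at the plasma membrane, read 2.59 on replicate 2 and 2.91 on replicate 3. These sat at like heights on both arrays, cys2 least so. The feature of pom34, a nuclear pore protein gene, read 2.38 on replicate 2 and 3.22 on replicate 3. The feature of isp3, for a protein of the spore surface, read 2.81 on replicate 2 and 2.32 on replicate 3. The last of the 15, rpp40 for an RNase P subunit, read 2.42 on replicate 1 and 6.32 on replicate 2, and is described below with the features whose arrays differed most.

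**Figure D4:**
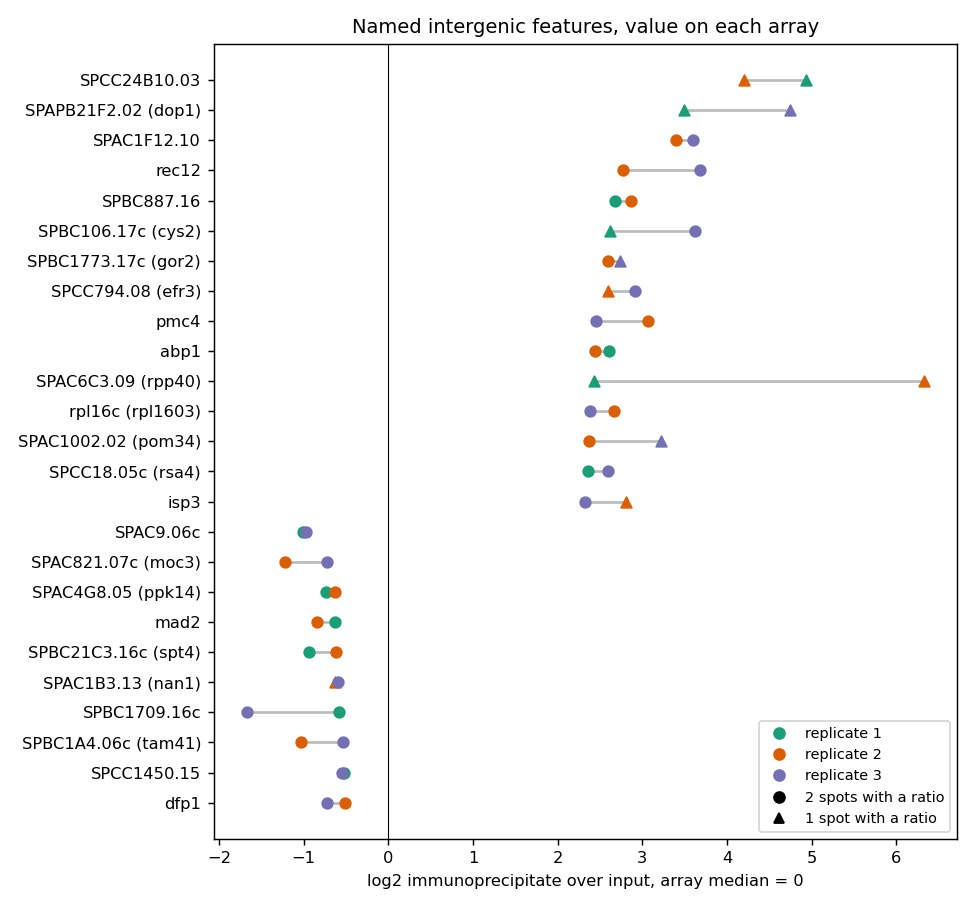
Log2 ratio on each array for the 15 features highest on both arrays and the 10 lowest on both, with the median of each array at 0; colours mark the replicate, circles the mean of 2 accepted spots and triangles a single spot. The 15 high features span 2.32 to 6.32 and the 10 low ones -1.66 to -0.51, and the 4 highest values are triangles.

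The 10 low features were closer to the middle than the high ones. SPAC9.06c, for a dehydratase of methionine salvage, read -1.01 on replicate 1 and -0.98 on replicate 3. The feature of moc3, a DNA-binding transcription factor gene, read -1.22 on replicate 2 and -0.72 on replicate 3. The feature of SPBC1709.16c, an aromatic ring-opening dioxygenase gene, read -0.58 on replicate 1 and -1.66 on replicate 3. The lowest single values among the 10 were those of SPBC1709.16c and moc3. The features of mad2 (spindle checkpoint), spt4 (transcription elongation), ppk14 (a protein kinase), tam41 (a mitochondrial lipid enzyme in budding yeast), nan1 (a U3 snoRNP-associated protein), dfp1 (the regulatory subunit of the replication kinase Hsk1) and SPCC1450.15 had means between -0.78 and -0.53. Over all 10 low features the input signal was 825.5 to 2734.5, and none had an immunoprecipitate above the 95th percentile of the controls on both arrays. With the array centred on coding spots only, which raised all values by 0.35, 0.54 and 0.38 on the 3 arrays, 1 of the 10 stayed at or below -0.5 on both and 9 stayed below 0 on both. All 15 high features stayed at or above 1 on both arrays under that centring, which an upward shift of every value fixed in advance.

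The largest differences between arrays each came from a single spot on at least 1 array. The feature of sen2, a tRNA-splicing endonuclease gene, read 6.46 on replicate 1, where its accepted spot had an input of 10, and 1.13 on replicate 2. The feature of utp6, for a ribosomal RNA processing protein, read 6.31 on replicate 2 over an input of 57, and 1.15 on replicate 3. Rpp40 read 6.32 on replicate 2 over an input of 63, while its spot on replicate 1 had an input of 4826 and an immunoprecipitate of 43810. In each of these 3 cases the high value belongs to 1 spot. The feature of sad1, a nuclear envelope protein gene, read 5.64 on replicate 1 from 1 spot with an input of 49, and 0.76 on replicate 2 from 2 spots. The feature of usp109, a U1 snRNP-associated protein gene, read 4.18 on replicate 1 over an input of 36 and 0.18 on replicate 2.

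The number of accepted spots set which features could be read with more weight. Of the 914 features, 429 had a ratio from all 4 spots on their 2 arrays, 388 from 3 and 97 from 2. Among the 210 high features 69 rested on 4 spots and 45 on 2. Requiring 4 spots therefore left 69 high features, all of them among the 210. Loess normalisation left 101 high features, of which 90 were among the 210, and all 15 named high features remained at or above 1 on both arrays with means between 2.04 and 3.95.

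An immunoprecipitate above the 95th percentile of the accepted negative controls on both arrays was found in 40 of the 914 features (4.38%), a subset chosen after the values were seen. Only spots accepted in both channels were averaged for this. The same limit on all 3 arrays was passed by 525 of the 3-array features (23.4%). Of the 210 high features 30 passed it (14.3%), against 62.9% of the 461 3-array features at or above 1 on all arrays. Of the 15 named high features 9 passed: SPCC24B10.03, dop1, SPAC1F12.10, SPBC887.16, cys2, pmc4, abp1, rpp40 and rsa4. With every spot accepted in the immunoprecipitate averaged, SPCC24B10.03 was at 1517 on replicate 2, under the limit of 1554.4 there. The rpp40 spot without a ratio on that array read 796. Most features called high on 2 arrays thus had an immunoprecipitate signal within the range of the controls on at least 1 of them.

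Further examples of this brighter subset, picked after their values were seen, follow; most of the 40 are other genes, such as yth1, rtp1, kcs1 and lys9. The feature of hsp16, a small heat shock protein gene, read 2.17 on replicate 1 and 2.81 on replicate 2. With every spot accepted in the immunoprecipitate averaged, its signal on replicate 2 was 1452, under the limit of 1554.4. The feature swo1, of the Hsp90 chaperone gene, read 1.88 on replicate 1 and 2.76 on replicate 3, each from a single spot. The feature of srw1, whose product activates the anaphase-promoting complex in G1, read 1.62 on replicate 1 and 1.72 on replicate 2. These 3 were high on both arrays. So were the long upstream feature of pho1, the secreted acid phosphatase gene, at 1.07 on replicate 1 and 1.25 on replicate 2, and that of pex7, a peroxisomal import receptor gene, at 1.84 on replicate 2 and 1.27 on replicate 3. By contrast the feature of wis1, the stress-pathway kinase kinase gene, passed the control limit with values of 0.55 on replicate 1 and 0.53 on replicate 3, and its input of 1451.5 and 1756 was well above that of most 2-array features. The feature of pma1, the plasma membrane proton pump gene, read 0.49 on replicate 1 and 1.29 on replicate 2.

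The array without a ratio usually still gave an immunoprecipitate signal. Its size did not enter the ratios that set high and low, but its flag took part in choosing the members: the immunoprecipitate was rejected there, alone or with the input, in 51 of the 914 features and in 15 of the 210 high ones. The signal's percentile was taken among the array's intergenic and coding spots, with rejected spots tied at the lowest rank. Its median was 37.5 over the 107 high features that replicate 1 rejected. It was 65.8 over the 35 that replicate 2 rejected and 56.9 over the 68 that replicate 3 rejected. For the 4, 3 and 3 low features the medians were 69.6, 70.9 and 57.1, and for the other 2-array features 35.8, 63.0 and 65.4. The high features stood at -32.0, -5.07 and -0.20 percentile points from the low ones on replicates 1, 2 and 3, a mean of -12.4 ± 17.1 (SD, n = 3, exact sign-flip p = 0.25). Without replicate 1, which holds 4 of the low features, the mean was -2.63. The high features differed from the other members by -1.33 ± 6.24 (n = 3, exact sign-flip p = 1). The medians of the high features were thus above those of the other members on replicates 1 and 2 and below them on replicate 3. This signal has no input beside it and is not a ratio, and the test can give no p under 0.25. The comparison therefore cannot decide whether the high features would have had a high ratio on that array.

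The 40 features above the controls stood further apart on the array without a ratio. There 13 of the 40 (32.5%) exceeded the 95th percentile of the controls, against 28 of the other 874 (3.20%). This count averaged all spots accepted in the immunoprecipitate, whereas the 40 were chosen on spots accepted in both channels. The 40 were chosen for the same kind of signal at the same limit on their other arrays. Part of the contrast on the array without a ratio is therefore built in, and it lends no separate support to their ratios. The median percentile was 68.7 against 35.6 where replicate 1 gave no ratio, 67.0 against 63.6 for replicate 2 and 67.0 against 64.1 for replicate 3. The difference was 13.2 ± 17.3 points (SD, n = 3, exact sign-flip p = 0.25), so its size rests mostly on replicate 1. The feature of pmc4 reached percentile 96.8 on replicate 1, abp1 92.7 on replicate 3 and rsa4 87.1 on replicate 2. The feature of rpl1603, outside the 40, reached 86.0 on replicate 1. At the other end SPCC24B10.03 reached 22.7 and rpp40 18.8 on replicate 3.

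Separate spots next to the members, with a ratio on all 3 arrays, were tested with limma against 0 over 5462 features. Over all of them 22.1% were enriched and 26.1% depleted at an adjusted p under 0.05. Among intergenic features 42.2% were enriched and 7.77% depleted, and among reading frames 8.19% and 38.8%. Next to the 210 high features 56 of 278 such neighbours were enriched (20.1%) and 90 depleted (32.4%). The count was 36 without replicate 1, 87 with the centre on coding spots and 33 with the background subtracted again. The share over all features in those settings is not given here, so these counts cannot be read as changes particular to the neighbours. Next to the other members, high and low ones left out, 74 of 851 were enriched (8.70%).

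Among these neighbours were the features of divergent genes, which lie in the same region between genes as the member. The stretches spotted for the 2 genes may overlap, which was not tested. Of the 37 such 3-array features next to a high feature, 23 were enriched (62.2%) and 2 depleted, with a median of 1.16. Next to the other members 43 of 133 were enriched (32.3%), with a median of 0.30. Over 172 regions the mean of the member and that of its divergent partner had r = 0.41 and rho = 0.37, as a description over features that share arrays.

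Among the named features, 4 high ones had a divergent partner that was enriched, and sen2 had one that was depleted. IGR-rpl25a, the divergent partner of the cys2 feature across 921 bases, read 2.68, 2.70 and 2.85 on the 3 arrays, a mean of 2.74 ± 0.09 (SD, n = 3, limma adjusted p = 9.01e-09). It belongs to a gene of a large-subunit ribosomal protein. IGR-SPBC2G2.04c, the partner of the rpl1603 feature, read 3.01, 3.08 and 3.11, a mean of 3.07 ± 0.05 (n = 3, limma adjusted p = 1.36e-09), and belongs to mmf1. IGR-SPAC1F8.04c, the partner of the isp3 feature, read 3.39, 3.13 and 3.05, a mean of 3.19 ± 0.18 (n = 3, limma adjusted p = 7.87e-10), and belongs to hhy1. These 3 partners were high on every array. IGR-SPBC887.15c, the partner of SPBC887.16 and named for sur2, had a mean of 1.57 ± 0.24 (n = 3, limma adjusted p = 4.51e-05). IGR-SPAPB17E12.08, the partner of SPAPB17E12.07c (sen2), had a mean of -1.02 (n = 3, limma adjusted p = 0.00349) and was below 0 on all 3 arrays, while the sen2 feature read 6.46 and 1.13 from single spots. IGR-pfk1, the partner of the sad1 feature, had a mean of 2.54 ± 0.23 (n = 3, limma adjusted p = 3.91e-08). For SPCC24B10.03 the partner feature had a ratio on replicate 2 alone, at 1.66.

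**Figure D5:**
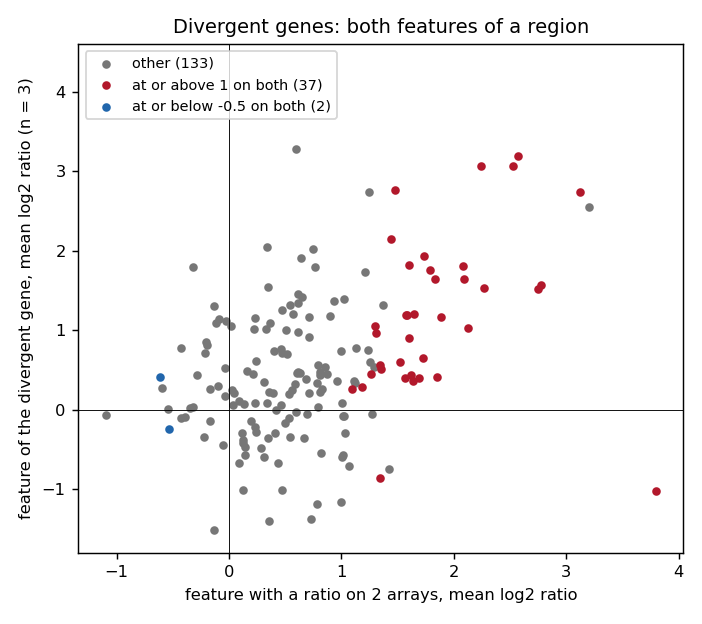
Mean log2 ratio of each 2-array feature (horizontal axis, 2 arrays) against that of the 3-array feature of the divergent gene in the same region (vertical axis, mean of 3 arrays), 1 point per region; red, at or above 1 on both arrays; blue, at or below -0.5 on both; grey, other. Of the 37 red points 35 lie above 0, and r over all 172 points is 0.41.

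Some divergent pairs had both of their features among the 914. There were 54 such pairs, and over them r was 0.40 and rho 0.27. In 4 pairs both features were high: SPAC20G8.06 with cdc15, SPBC15C4.04c with SPBC15C4.05, SPAC22F3.03c with mug62, and SPAC16A10.01 with spn5. In 16 pairs 1 of the 2 was high. The features of SPAC20G8.06 and of cdc15, which organises the contractile ring, had means of 2.37 and 2.42.

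Reading frames beside the high features were mostly not enriched. The frame of the member's own gene was enriched in 15 of 131 cases (11.5%) and the frame across the region in 19 of 120 (15.8%), against 8.19% of all frames; the difference was not tested. Next to the other members the shares were 4.81% of 416 and 4.07% of 369. Depleted were 46 of the 131 own frames (35.1%) and 45 of the 120 across (37.5%), with medians of -0.43 and -0.46, near the 38.8% of all frames. The frame of SPBC887.16 read 4.12, 3.74 and 4.15 (SD of 0.23, n = 3, limma adjusted p = 2.37e-11). The frame of SPAC1F8.04c (hhy1), across from isp3, had a mean of 2.18 ± 0.83 (n = 3, limma adjusted p = 2.06e-06), and that of isp3 itself 1.22 ± 0.47 (n = 3, limma adjusted p = 0.000907). The frame SPAC1610.05 (mrx11), across a region of 292 bases from pom34, had a mean of 1.79 ± 0.67 (n = 3, limma adjusted p = 1.83e-05). The frame SPCC18.06c (caf1), next to rsa4, had 1.60 ± 0.44 (n = 3, limma adjusted p = 4.51e-05). Exg1, a glucanase gene across the region from pmc4, had 1.37 ± 0.43 (n = 3, limma adjusted p = 0.000271). Among the depleted frames was car1, across from gor2, at -1.56 ± 0.49 (n = 3, limma adjusted p = 6.83e-05).

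Next to the 10 low features no neighbour was enriched and 9 of 17 were depleted (52.9%), by limma over the same 5462 features. The own reading frame was depleted in 6 of 7 cases and the frame across the region in 3 of 8 (37.5%), against 38.8% of all frames. The count of 9 fell to 4 without replicate 1, to 3 with the centre on coding spots and to 2 with the background subtracted again. The share over all features in those settings is not given here either. The frame of SPBC1709.16c read -1.54, -3.01 and -1.74, a mean of -2.10 ± 0.80 (n = 3, limma adjusted p = 3.31e-06). The frame of spt4 had -1.59 ± 1.03 (n = 3, limma adjusted p = 0.0002) and that of ppk14 -1.12 ± 0.05 (n = 3, limma adjusted p = 0.00144). The frames of moc3, mad2 and dfp1 (spotted under its older name rad35) lay between -0.99 and -0.96. The only 2 divergent partners with 3 arrays, IGR-rpb10 and IGR-SPCC1450.14c, had means of 0.42 and -0.25 and did not pass the test.

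The regions behind the members were shorter by their median than those of the 3-array features, as a description with no test. Of the 914 features 877 matched a gene (96.0%) and 861 had a region to measure. The region between the coding sequences had a median of 814 bases, against 965 for 3-array features, 800 for 1-array and 833 for 0-array features. The high members had a median of 973 bases, with 13.4% under 500, and the low ones 450.5 bases, with 50.0% under 500. The 3-array features at or above 1 on all arrays had 1228 bases. The share of G and C was higher the more arrays gave a ratio, from a median of 30.3% at 0 arrays through 30.7% and 31.1% to 32.0% at 3. Divergent gene pairs made up 56.0% of the members and 56.8% of the 3-array features. Within 100 kb of a chromosome end lay 1.97% of the members and 4.20% of the 3-array features.

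By function, 4 of the lists had no member. None of the 15 iron uptake features was a member, as all 15 had a ratio on 3 arrays, with a median of 2.64. The glycolysis and fermentation genes had 0 members of 15, with 14 on 3 arrays at a median of 2.55. Histone genes had 0 of 9 and features named for tRNAs 0 of 19. Over all intergenic features 17.7% were members. The region of the member SPCC757.11c holds a tRNA gene, so such regions do occur among the members under other names. These lists were chosen with earlier results of the same arrays known, so their counts are descriptions, beside a median of 0.72 over all 914 members.

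Of the 25 core stress features on the array 4 were members, where 17.7% of all intergenic features were. All 4 were above 0 on both arrays, and 3 were at or above 1 on both, beside 23.0% of all members. Hsp16 had the highest mean, 2.49 ± 0.45 (n = 2). Hsp90 followed with 2.32 ± 0.62 (n = 2), from a single spot on each array. The feature of ntp1, the neutral trehalase gene, read 1.60 on replicate 2 and 2.36 on replicate 3. The lowest, gst3 for a glutathione transferase, read 1.10 on replicate 1 and 0.991 on replicate 2. The 17 core stress features with 3 arrays had a median of 1.40.

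Genes of mating, meiosis and transcription were spread more widely. Over all 914 members 23.0% were high and the mean had a median of 0.72. The counts by list below are small and were not tested. Of the 23 mating and meiosis features on the array 6 were members, and 5 of these had a mean above 0. Spn5, a septin gene of sporulation, was the only high one, with 2.00 on replicate 1 and 1.42 on replicate 2. The lowest was dmc1, a meiotic recombinase gene, at -0.41 on replicate 2 and 0.22 on replicate 3. Mei4, the transcription factor of middle meiosis, read 1.82 on replicate 2 and 0.53 on replicate 3, so its arrays disagreed by more than 1. Of the 86 mug features on the array, named for genes upregulated in meiosis, 13 were members and 5 of these were high. They were led by mug62 at 2.08 on replicate 2 and 1.59 on replicate 3, and mug5 was the lowest member with a mean of -0.45. Of the 35 transcription factor features on the array 5 were members, and 2 of these were high. Thi1, the thiamine regulator, read 1.44 on replicate 1 and 1.23 on replicate 2. Sre1, the sterol-responsive factor, was the lowest of the 5 with a mean of 0.26.

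Cytosolic ribosomal protein genes were the largest list, with 24 members of 140 features on the array. Their median was 0.83, that of the 81 features with 3 arrays 0.52, and 6 of the 24 were high, close to the 23.0% of all members. Rpl1603 led with a mean of 2.53 and rps001 was lowest with -0.43. Single members came from other lists. The feature of pfl9, for a cell-surface adhesin, read 2.51 on replicate 2 and 1.73 on replicate 3. Pst1 and clr3, genes of a deacetylase complex scaffold and of a histone deacetylase, had means of 1.06 and 0.36. The hexose transporter gene ght4 had a mean of 0.77, the malate transporter gene mae1 0.33, the amino acid permease gene put4 0.65 and the copper transporter gene ctr4 0.28. The 3 wtf features, of a family of meiotic drivers, had means of 0.39 to 0.45, and none was high.

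Ranks gave nearly the same picture as the log ratios. A median rank at or above the 85th percentile of the array over a feature's spots was reached by 207 of the 914 (22.6%), against 25.2% of the 3-array features. Of the 210 features high on both arrays 191 were among these 207. The ranks were taken from the same spot ratios, so much of this overlap is built in and lends no separate support.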

How the data were processed

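Per the labels' protocols, chromatin was crosslinked, sonicated and precipitated, both DNAs were amplified and labelled, and spots were quantified with TIGR Spotfinder from ScanExpress scans. The sources used here give neither versions nor the array's genome build. The authors deposited spot intensity per channel for 22176 spots per array, already reduced by local background as the values show, with rejected spots (flag X) at 0. The authors also deposited a table of log10 values, median normalized per the labels' protocols, used here only as an alternative. Replicate numbers follow accession order and pair nothing. The log2 ratio of integrated intensities was centred on the median of 20404 intergenic and coding spots, and accepted spots were averaged. The number of arrays limits the precision. Features with 3 arrays were tested with limma 3.58.1 in R 4.3.3 (mean against 0, Benjamini-Hochberg over 5462 features). On simulated data this recovered 69% of shifts of 1 and 100% of shifts of 2, with 6 false calls. Single differences used an exact sign-flip test over the 3 arrays. Names were matched to RefSeq ASM294v3, and a name shared by several genes was left unmatched where the array did not settle it.

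The members and the lists were chosen with earlier results of these data known. The features named are the 15 highest and the lowest by the value nearer 0 of the pair (12 asked for at -1, where there were 0, and 10 found at -0.5), the 5 with the largest difference between arrays, the highest and lowest of each list, those beside each limit, and 3-array neighbours; 1 feature that the rule names is not reported here. Others named, among them the features above the controls, the pairs with 2 high features and further list members, were chosen after their values were seen. The list of ribosomal proteins was corrected after it had caught RNase P genes. Alternatives were the coding centre, median pixel values, background subtracted again, normexp with an offset of 50, loess with a span of 0.3, a minimum of 2 spots, other limits, single-channel flags and leaving out each array.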

Additional observations from a re-analysis of the deposited data

How the results depend on the processing

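No paired analysis was possible because the arrays form a single group. Counting members by the immunoprecipitate flag alone gave 506 features, against 914; 2 other spot rules changed the count by less than 1.5 times. The 210 features high on both arrays became 400 with the centre on coding spots (all 210 among them), 322 with median pixel values (205 shared), 323 with normexp (206 shared), 101 with loess (90 shared), 69 with 2 spots required on each array, 441 at a limit of 0.5, 81 at 1.5 and 30 with the immunoprecipitate above the controls; leaving out 1 array gave 35 to 107, since a feature with 2 arrays then keeps both only where the array left out had no ratio. Centring on coding spots raised every value, so it could not remove any of the 210. The count at or below -1 was 0 and became 12 with the background subtracted again, 14 with normexp and 10 at -0.5. The median difference of 0.22 turned to -0.11 with loess and to -0.20 within bins of equal input. Enriched neighbours of high features, 56, became 87 with the coding centre and 33 with the background subtracted again, and 36 to 59 when 1 array was left out. Depleted neighbours of low features, 9, became 3, 2 and 4 to 9 in the same settings. Both neighbour counts stand without the share over all features in each setting. The percentile difference of -12.4 turned to 4.20 with the authors' log10 table, which was added after the data were seen. The list at the 85th percentile, 207, was 113 at the 90th. The cause of these changes was not tested, except that stricter limits keep fewer features by construction. Of 136 values of single named features, each the mean of its arrays, under another centre, signal, background or normalization, 0 changed sign. These features were chosen as extremes on the same spots, so keeping their sign is largely built in and lends no separate support. Values on single arrays were less stable, as 9 of the 10 low features stayed below 0 on both arrays with the coding centre. A limit of -1 gave no low features, so the planned percentile and neighbour comparisons at -1 and 1.5 gave no value. How far signal near the controls sets the ratios was not tested.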
